A study of Mus musculus with 19 samples.

Results

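The genes described here are the writers, readers and erasers of N6-methyladenosine (m6A) in mouse MII oocytes and 2cell embryos. They were chosen by gene name and not by a threshold on values: 10 of the 25891 genes in the deposited table. Mettl3, Mettl14 and Wtap are writers. Ythdf1, Ythdf2, Ythdf3, Ythdc1 and Ythdc2 are readers, and Alkbh5 and Fto are erasers. The study asked what CPEB3, an RNA-binding protein of the cytoplasmic polyadenylation element binding family, does in the mouse oocyte. RNA was sequenced from 5 CPEB3+/- and 5 CPEB3-/- samples of MII oocytes, the mature egg arrested at the second meiotic metaphase, and from 5 CPEB3+/- and 4 CPEB3-/- samples of 2cell embryos. The labels write these genotypes as Het and KO, and the methods put 5 cells into each sample. All females were BL6, 6 to 10 weeks old, and had received 5 IU of PMSG and, 48 h later, 5 IU of hCG. The embryos came from females mated with males, were cultured from the zygote in M16 medium and were collected 37 h after hCG. The deletion was conditional: Cre recombinase was driven by the Zp3 promoter, which is active in growing oocytes, and the CPEB3-/- genotype stood for CPEB3 LoxP/LoxP; ZP3 Cre+/-. The methods describe a control that carries the Cre with a single floxed allele, without saying that the Het libraries are it. The Cre acts on CPEB3 in the egg, and for the embryo experiments the study paired knockout females with wild-type males. The labels do not say that samples came from separate females or cultures, so each p-value measures only the spread between these samples.

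m6A is a methyl mark on adenosines inside messenger RNA. METTL3 is the catalytic subunit of the writer complex, METTL14 its RNA-binding partner, and WTAP the adaptor that holds the complex in nuclear speckles. Readers bind the mark through a YTH domain: YTHDF1, YTHDF2 and YTHDF3 are cytoplasmic paralogs, YTHDC1 is nuclear, and YTHDC2 carries a helicase. ALKBH5 and FTO are oxygenases that remove the methyl group. In mouse oocytes, where transcription is silent and RNA is cleared at maturation and after fertilization, YTHDF2 is known as a maternal factor of transcript dosage, YTHDC1 as a factor of growing oocytes and ALKBH5 as a factor of meiosis.

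CPEB proteins recognise U-rich elements in 3' UTRs near the polyadenylation signal, so the annotated 3' UTRs of the 10 genes were searched on the transcript strand for TTTTAT and TTTTAAT, written as DNA. Neither motif contains the other, though they can share an end base. The longest annotated 3' UTR of a protein-coding transcript was used (GENCODE vM21, GRCm38), and the table did not tell which 3' UTR an oocyte uses. The last 300 bases held an element in 4 of the 10 genes, Ythdf2, Ythdc1, Mettl14 and Fto, against 40.2% of 6409 genes tested in MII oocytes. Mettl3, with a 3' UTR of 171 bases, had none at any position. The element nearest the annotated end is printed in capitals within 30 bases for the 3 paralogs of the Ythdf family, for Alkbh5 and for Mettl14, since most of the differences measured fall on these genes.
Ythdf1: gctgtcttaagtTTTTATaccagtaacgct
Ythdf2: ctctgccaaactTTTTATtataaaatatat
Ythdf3: tgggtattttatTTTTAATggtattatagt
Alkbh5: gcccacagaacaTTTTAATtggctttctgt
Mettl14: gggtaactccttTTTTATtttgctataact
The Ythdf2 window lies at chr4:132184996-132185025 on the minus strand, and its element starts 102 bases before the end of a 3' UTR of 2012 bases. In Ythdf1 (chr2:180904854-180904883, minus strand) the last element starts 495 bases before the end, and in Ythdf3 (chr3:16216435-16216464, plus strand) 591 bases before it. The only element of the 4097-base Alkbh5 3' UTR (chr11:60557092-60557121, plus strand) starts 1409 bases before the end. Mettl14 (chr3:123368324-123368353, minus strand) has its element 45 bases before the end of a 3' UTR of 6439 bases. The polyadenylation signal AATAAA was found in the last 50 bases of the 3' UTR of 8 genes, all but Ythdf2 and Fto, against 65.3% of those 6409 genes. The Fto element counted above lies at chr8:91526029-91526058 on the plus strand, while the gene is annotated to chr8:91668439. The Wtap signal lies at chr17:12972692-12972721 on the minus strand, while the gene is annotated down to chr17:12966796. For these genes the matches refer to the transcript used and may not lie near the end of others. In the Ythdf2 transcript used, the last AATAAA starts 505 bases before the annotated end, so the element printed above lies downstream of that signal. A match is a string of letters and not a measured binding site.

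The values are FPKM, fragments relative to the length of a gene and to the size of the library. The paper's methods do not say which length was used, and comparisons of levels between genes depend on it. Depth was not given with the table. On exon length, the lowest values of genes with 1 annotated transcript stepped by about 1 fragment and gave an estimate of 17.1 to 23.5 M fragments per library. The targeted gene went against its label. Cpeb3 was at 0.0755 ± 0.0240 FPKM (SD, n = 5) in MII libraries labelled CPEB3+/- and at 0.162 ± 0.0325 FPKM (n = 5) in those labelled CPEB3-/-, higher in the latter (log2 fold change 0.53, SE 0.123, limma, Benjamini-Hochberg adjusted p = 0.0144), with groups that did not overlap. The CPEB3+/- values of 0.0450 to 0.101 FPKM lie near or under the filter of 0.1 FPKM on low values. Cpeb3 thus entered this fit through the libraries labelled CPEB3-/-. In 2cell embryos it was at 0.0303 ± 0.0149 FPKM (n = 5) against 0.0554 ± 0.0129 (n = 4), with a two-sided exact permutation p of 0.0476. An FPKM over all exons of Cpeb3 pools deleted and remaining exons, so it cannot check the genotype, and directions between genotypes below rest on the labels. Both stages carried their own markers: the 10 oocyte genes summed to 1353 to 1651 FPKM in CPEB3+/- and 959.5 to 1266 FPKM in CPEB3-/- MII libraries. The 11 genes specific to the 2cell stage summed to 38.1 to 45.3 and 46.6 to 62.4 FPKM in these, and to 563.8 to 963.5 FPKM in 2cell libraries. Both sums separated the MII genotypes without overlap, and their part in the genotype differences was not tested. Of 12 cumulus and granulosa markers 8 were measured, and their summed level stayed between 0.241 and 0.657 FPKM in all groups. Of 7 blood markers 3 were measured, at 0.0512 to 0.428 FPKM in MII and 46.2 to 146.5 FPKM in 2cell libraries, where the alpha globin genes Hba-a1 and Hba-a2 carried the sum, and their part in differences between stages was not tested.

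**Figure D1:**
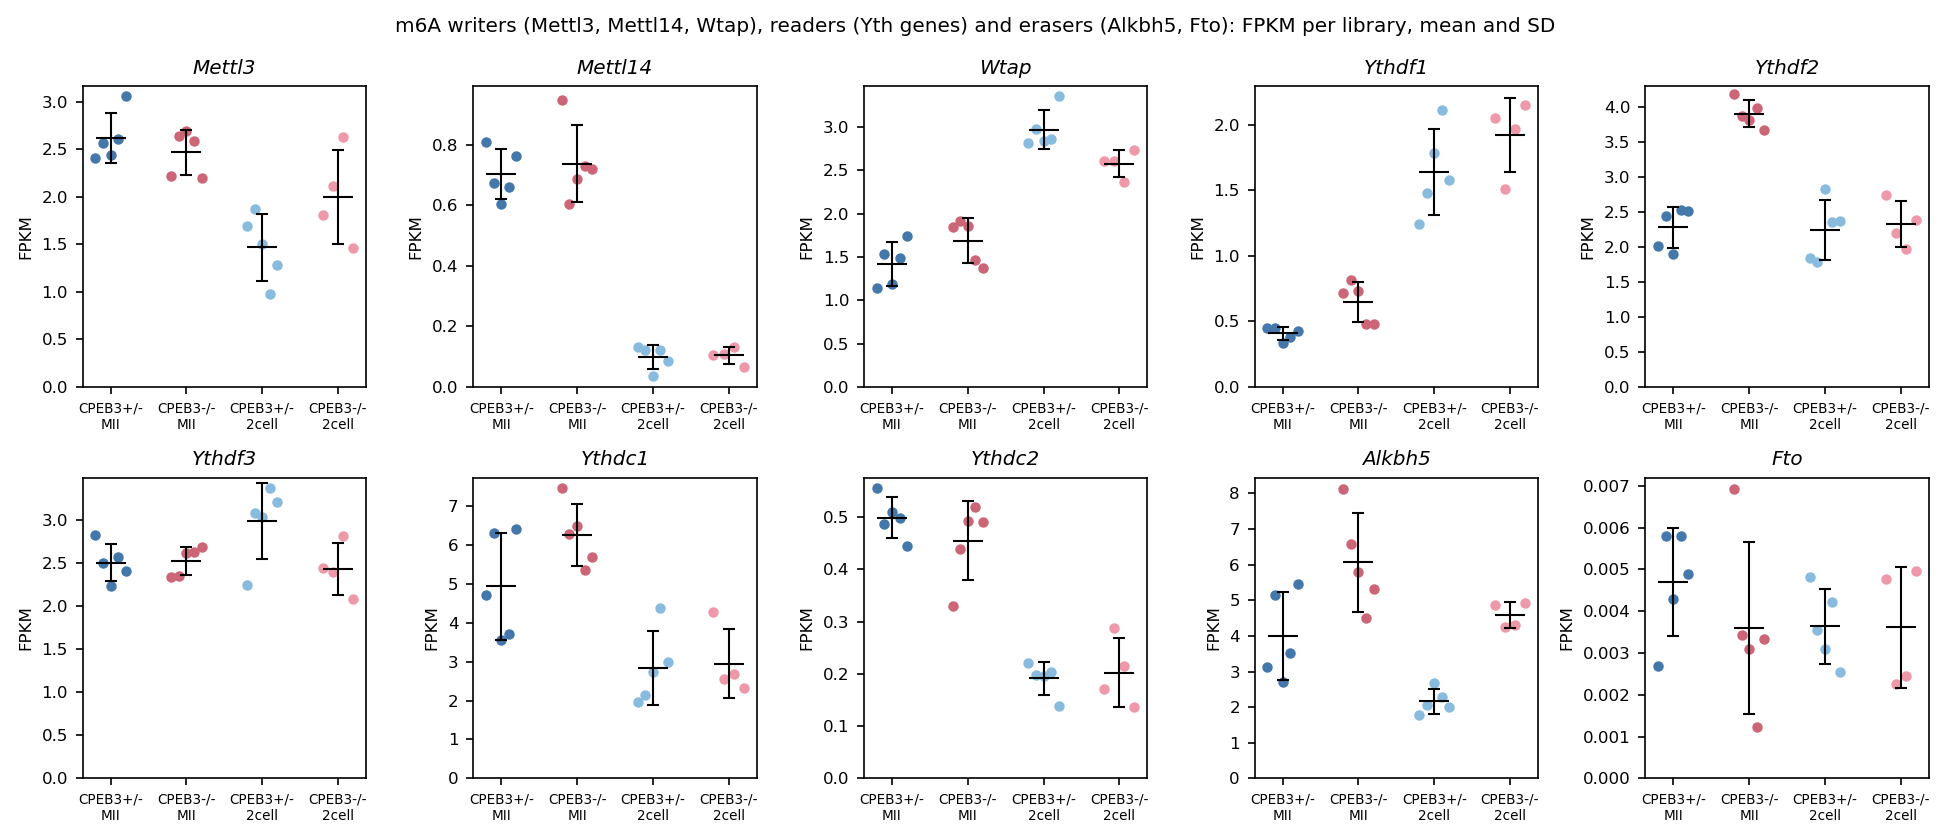
Level of each of the 10 genes in FPKM (vertical axis, linear, from 0, with its own range per gene) in the 19 libraries, by genotype and stage. Points are libraries, horizontal lines are means and bars are SDs; Ythdf2 stands higher in all 5 CPEB3-/- MII libraries (3.66 to 4.17 FPKM), Alkbh5 in all 4 CPEB3-/- 2cell libraries compared with CPEB3+/- (4.24 to 4.91 FPKM), and Fto stays at or below 0.00691 FPKM throughout.

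In MII oocytes, 1 of the 9 genes tested differed by genotype. A gene was called at an adjusted p under 0.05 and a fold over 1.5, and 12.9% of the 10515 genes tested were called (5.59% higher), so 1 of 9 is near that share. Ythdf2, the reader that recruits deadenylases to methylated transcripts, was at 2.00, 2.44, 1.90, 2.52 and 2.51 FPKM in the CPEB3+/- libraries. In the libraries labelled CPEB3-/- it was at 4.17, 3.86, 3.81, 3.98 and 3.66 FPKM. Every CPEB3-/- library stood above every CPEB3+/- library, which held in the higher direction for 8.71% of the genes tested. The means were 2.27 ± 0.298 and 3.90 ± 0.192 FPKM (SD, n = 5 each), and the log2 fold change, fitted on log2(FPKM + 0.1), was 0.66 (SE 0.0796, limma, Benjamini-Hochberg adjusted p = 0.000588). The call held in 10 of 10 fits that left out a library. It was lost with a pseudocount of 1, where the log2 fold change of 0.51 fell under 1.5-fold.

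Ythdf1, the paralog best known for promoting translation, was much lower. It was at 0.452, 0.452, 0.336, 0.378 and 0.426 FPKM in CPEB3+/- MII oocytes and at 0.719, 0.815, 0.735, 0.483 and 0.483 FPKM in those labelled CPEB3-/-. The groups did not overlap either, and the log2 fold change was 0.45 (SE 0.140, limma, adjusted p = 0.0439), past the p threshold and under the fold threshold. Leaving out 1 library moved that adjusted p to between 0.0282 and 0.104, and scaling to the sum of FPKM made it a call (0.60, adjusted p = 0.0183). On merged exon length these levels would rest on roughly 25.6 to 53.9 fragments per library. That conversion does not hold for Fto, as given below, and was not checked for Ythdf1. Ythdf3 was at 2.51 ± 0.217 and 2.52 ± 0.167 FPKM (n = 5 each). Its log2 fold change was -0.08 (SE 0.101, limma, adjusted p = 0.575), with a sign that turned to 0.09 when libraries were scaled to their sum of FPKM.

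Within each library, the 3 paralogs can be set against each other without any scaling between libraries. Ythdf2 made up 43.8% ± 3.66 of their summed FPKM in CPEB3+/- MII oocytes and 55.1% ± 1.85 in those labelled CPEB3-/- (n = 5 each). The highest CPEB3+/- share was 46.9% and the lowest CPEB3-/- share 53.2%, so the groups did not overlap. The ratio of Ythdf2 to Ythdf3 was 0.912 ± 0.133 in the first group and 1.55 ± 0.166 in the second. The summed level of the 3 readers was 4.48 to 5.47 FPKM against 6.83 to 7.23 FPKM. In 2cell embryos the Ythdf2 share was lower in both genotypes, at 32.5% ± 3.55 (n = 5) and 34.7% ± 3.83 (n = 4), and these groups overlapped.

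**Figure D2:**
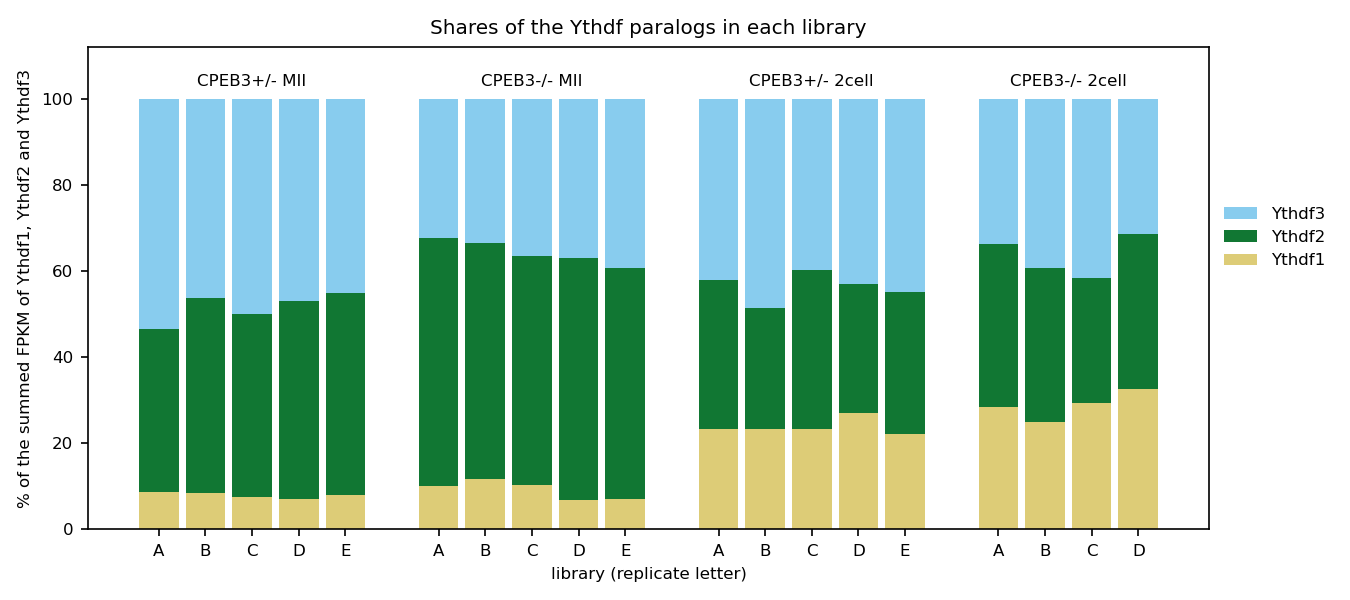
Share of Ythdf1, Ythdf2 and Ythdf3 in the summed FPKM of the 3 genes (vertical axis, percent), 1 bar per library, by genotype and stage. The Ythdf2 share lies between 53.2% and 57.7% in the CPEB3-/- MII libraries and at or below 46.9% in the CPEB3+/- MII libraries, and the Ythdf1 share is 22.1% or more in every 2cell library and 11.6% or less in every MII library.

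The nuclear reader Ythdc1, which acts in splicing and nuclear export, had the highest group mean of the 10 genes in MII oocytes of both genotypes, although Alkbh5 stood above it in the CPEB3-/- libraries A and B. It ranged from 3.56 to 6.42 FPKM in CPEB3+/- and from 5.35 to 7.45 FPKM in CPEB3-/- libraries, which overlapped (log2 fold change 0.27, SE 0.150, limma, adjusted p = 0.216). Its gene body shares 12886 bases with Gm43055, a lincRNA gene annotated on the same strand, and their reads cannot be told apart here. Ythdc2, a helicase reader needed for entry into meiosis, was at 0.445 to 0.555 FPKM and 0.330 to 0.520 FPKM, again overlapping (log2 fold change -0.20, SE 0.141, limma, adjusted p = 0.318).

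None of the 3 writers was called between genotypes in MII oocytes. Mettl3 had means of 2.62 ± 0.262 and 2.47 ± 0.238 FPKM in the respective genotypes, CPEB3+/- first (log2 fold change -0.18, with 2 SE reaching from -0.37 to 0.01). Mettl14 was at 0.703 ± 0.0828 and 0.739 ± 0.128 FPKM (log2 fold change -0.03, from -0.27 to 0.21), and its sign turned with the scaling. Wtap was at 1.42 ± 0.252 and 1.69 ± 0.255 FPKM (log2 fold change 0.15, from -0.08 to 0.38). Each of these intervals lies inside 1.5-fold in this fit. For Wtap the value was 0.31 (SE 0.143) with scaling to the sum of FPKM and 0.40 (SE 0.178) with GC correction, and 2 SE then reach past 1.5-fold. Mettl3 shares 1561 bases at one end with Tox4 on the opposite strand, and the sources used here do not say whether counting used strand.

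Alkbh5, the eraser known from spermatogenesis and oocyte meiosis, was at 3.13, 5.15, 2.72, 3.53 and 5.45 FPKM in CPEB3+/- and at 8.13, 6.58, 5.78, 4.49 and 5.33 FPKM in CPEB3-/- libraries. The CPEB3+/- libraries B and E reached into the CPEB3-/- range. The means were 3.995 ± 1.23 and 6.06 ± 1.38 FPKM, and the log2 fold change of 0.52 (SE 0.181, limma, adjusted p = 0.0649) did not pass. It passed without the CPEB3+/- library E (0.61, adjusted p = 0.0369) and without the CPEB3-/- library D (0.60, adjusted p = 0.0419), and with scaling to the sum of FPKM (0.69, adjusted p = 0.0381). Fto was listed at 0.00122 to 0.00691 FPKM in MII oocytes and 0.00227 to 0.00496 FPKM in 2cell embryos. On its merged exon length of 13031 bases these would be 0.331 to 2.04 fragments per library. Since a value above 0 needs at least 1 fragment, that conversion does not hold for Fto, and its depth is unknown. Its listed FPKM was the lowest of the 10 genes in every group, a rank that depends on the length used. Fto did not pass the filter on low values, and no fold is given.

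In 2cell embryos, 1 of the 9 genes was called, against 18.3% of 14051 genes tested (8.41% higher), and it was another one. Alkbh5 was at 1.77, 2.07, 2.68, 2.30 and 2.00 FPKM in CPEB3+/- embryos. In those labelled CPEB3-/- it was at 4.87, 4.24, 4.31 and 4.91 FPKM. The lowest CPEB3-/- library stood well above the highest CPEB3+/- library, as held in this direction for 10.4% of genes. The means were 2.16 ± 0.346 (n = 5) and 4.58 ± 0.357 FPKM (n = 4), with a log2 fold change of 1.004 (SE 0.127, limma, Benjamini-Hochberg adjusted p = 0.00162). The call held in 9 of 9 fits that left out a library, at log2 fold changes of 0.96 to 1.07. Exons of Alkbh5 have a GC content of 50%, the highest of the 10 genes, and with a correction for GC content the log2 fold change was 0.96 (adjusted p = 0.00205).

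Ythdf2 was not called in 2cell embryos. It was at 1.85, 1.78, 2.82, 2.36 and 2.37 FPKM in CPEB3+/- and 2.74, 2.20, 1.97 and 2.38 FPKM in CPEB3-/- embryos, with a log2 fold change of 0.01 (SE 0.152, limma, adjusted p = 0.975) and a range of 2 SE from -0.30 to 0.31. Ythdf1 was at 1.64 ± 0.329 and 1.92 ± 0.282 FPKM (adjusted p = 0.486, limma). Ythdf3 was at 2.99 ± 0.438 and 2.43 ± 0.3002 FPKM (log2 fold change -0.33, adjusted p = 0.130, limma), with a sign that turned with scaling to the sum of FPKM (0.0047) and GC correction (0.09).

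Wtap was the only writer whose 2cell groups did not overlap. It was at 2.81, 2.98, 2.85, 2.86 and 3.37 FPKM in CPEB3+/- embryos and at 2.60, 2.61, 2.37 and 2.74 FPKM in those labelled CPEB3-/-. All 4 of the latter were lower, as held in that direction for 9.56% of genes. The log2 fold change was -0.25 (SE 0.116, limma, adjusted p = 0.157), did not pass, and turned to 0.09 with scaling to the sum of FPKM and to 0.12 with the GC correction. Mettl3 was at 0.980 to 1.88 FPKM and 1.46 to 2.63 FPKM (log2 fold change 0.37, adjusted p = 0.296, limma). Mettl14 was low in both genotypes, at 0.0358 to 0.132 and 0.0669 to 0.133 FPKM. By the same unchecked conversion these would be roughly 4.55 to 18 fragments per library. Ythdc1 and Ythdc2 had log2 fold changes of 0.02 and 0.00 (SE 0.239 and 0.201).

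**Figure D3:**
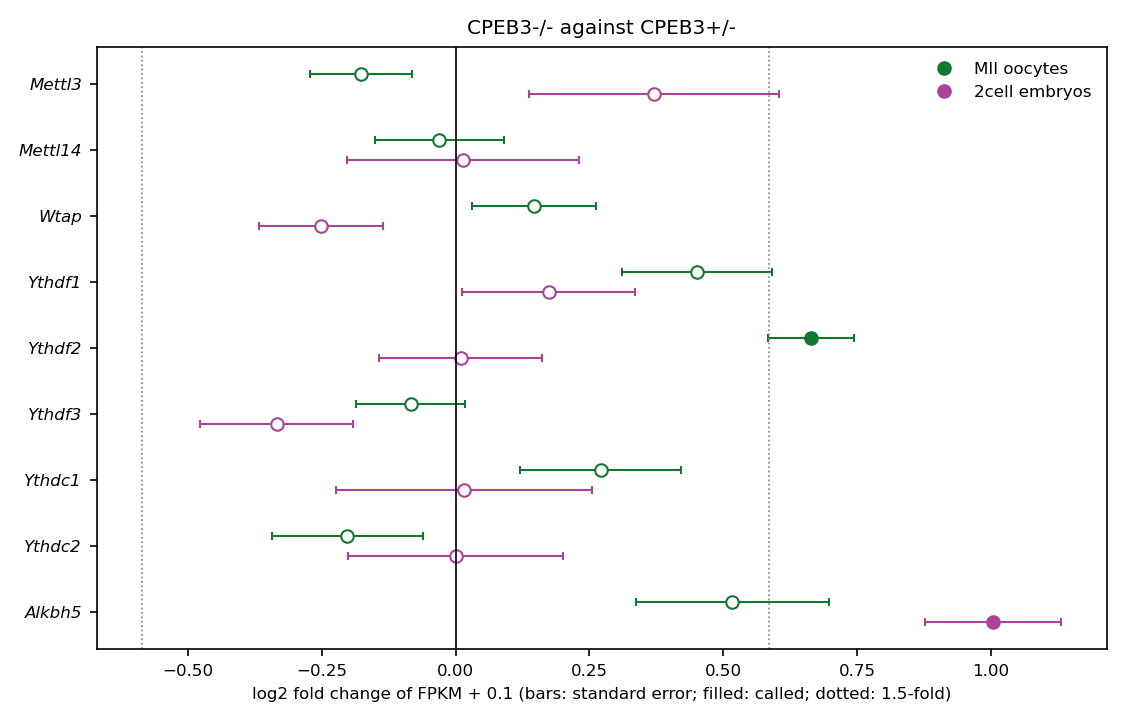
Log2 fold change of CPEB3-/- against CPEB3+/- libraries on log2(FPKM + 0.1) (horizontal axis) for the 9 genes tested, in MII oocytes (green) and 2cell embryos (purple). Bars are standard errors, filled points passed an adjusted p of 0.05 and 1.5-fold, and dotted lines mark 1.5-fold: Ythdf2 is filled in MII oocytes at 0.66 and Alkbh5 in 2cell embryos at 1.004, while the other points are open.

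Whether a genotype difference changed from MII oocytes to 2cell embryos was tested directly, as an interaction in a fit over the 19 libraries. It was called for 7.64% of 15786 genes (3.93% lower) and for 1 of the 9 genes here, Ythdf2. In that fit its genotype difference was 0.64 in MII oocytes and 0.03 in 2cell embryos, a change of -0.61 on the log2 scale (SE 0.167, limma, Benjamini-Hochberg adjusted p = 0.0310). This call was less firm than the MII difference itself: it held in 11 of 19 fits that left out a library, with an adjusted p between 0.0156 and 0.0654, and in 4 of 9 alternatives. Among those that ended it were GC correction (adjusted p = 0.0526), scaling to the sum of FPKM (adjusted p = 0.153) and a pseudocount of 1, where the value of -0.48 fell under 1.5-fold. For Alkbh5 the difference between stages was 0.53 (SE 0.222, limma, adjusted p = 0.159), so a genotype difference particular to 2cell embryos was not shown. Mettl3, with genotype values of -0.21 in MII oocytes and 0.39 in 2cell embryos in the same fit, had the largest positive interaction of the 9 at 0.59 (SE 0.229, limma, adjusted p = 0.125), and Wtap was at -0.35 (adjusted p = 0.163).

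From the MII oocyte to the 2cell embryo, most of these genes moved. In CPEB3+/- libraries 7 of 9 were called, 2 higher and 5 lower, where 69.5% of 12684 genes were called (38.5% higher and 30.9% lower). In CPEB3-/- libraries 5 of 9 were called, 1 higher and 4 lower, where 67.2% of 13458 were (37.5% higher and 29.7% lower). Neither 7 of 9 nor 5 of 9 lies far from the share of all genes. The median log2 fold change was -0.92 over the 9 genes and 0.12 over all genes tested in CPEB3+/- libraries, and -0.47 and 0.12 in CPEB3-/- libraries. With 5 cells pooled per library and values relative to the total, fewer transcripts per cell and a larger total of other RNA cannot be told apart. Scaling libraries to their sum of FPKM moved the median of all genes to -0.41 in CPEB3+/- and -0.25 in CPEB3-/- libraries, and the genes called in either genotype kept their direction under it.

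Writers did not move together over these stages. Mettl14 fell from 0.811, 0.675, 0.605, 0.661 and 0.763 FPKM in CPEB3+/- MII oocytes to 0.132, 0.123, 0.0358, 0.122 and 0.0861 FPKM in CPEB3+/- 2cell embryos. The groups lay far apart, with a log2 fold change of -2.11 (SE 0.170, limma, adjusted p = 4.24e-07), and the value in CPEB3-/- libraries was -2.11 as well (SE 0.155, adjusted p = 8.15e-07). Its 2cell level lies near the pseudocount of 0.1 FPKM, so the size depends on it: with a pseudocount of 1 the values were -0.66 and -0.68, still called. Its partner Mettl3 fell less, with a log2 fold change of -0.94 (SE 0.158, limma, adjusted p = 0.000191) in CPEB3+/- libraries and -0.41 (adjusted p = 0.0424, under 1.5-fold) in CPEB3-/- libraries, where scaling to the sum of FPKM (-0.86) and quantile scaling (-0.70) made it a call and values as deposited missed the p threshold (adjusted p = 0.115). Within libraries, the ratio of Mettl3 to Mettl14 went from a median of 3.95 in CPEB3+/- MII oocytes (range 2.97 to 4.04) to 14.9 in CPEB3+/- 2cell embryos (8.01 to 42.0), and from 3.55 (2.34 to 4.37) to 19.5 (17.0 to 21.8) in CPEB3-/- libraries. Wtap went the other way, from 1.14, 1.54, 1.19, 1.49 and 1.75 FPKM in CPEB3+/- MII oocytes to 2.81 to 3.37 FPKM in the embryos. Its log2 fold change of 0.91 (SE 0.112, limma, adjusted p = 1.62e-05) missed both thresholds with scaling to the sum of FPKM (0.28, adjusted p = 0.0782) and under 1.5-fold with quantile scaling (0.56), and in CPEB3-/- libraries it was 0.50 (adjusted p = 0.00410), under 1.5-fold, and a call as deposited (0.59) and with GC correction (0.85). The ratio of Wtap to Mettl3 within libraries was 0.475 to 0.597 in CPEB3+/- MII oocytes and 1.59 to 2.92 in the CPEB3+/- embryos.

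Among readers, Ythdf1 rose and the YTHDC genes fell. Ythdf1 went from at most 0.452 FPKM in CPEB3+/- MII oocytes to 1.24, 1.48, 1.79, 2.11 and 1.58 FPKM in CPEB3+/- embryos, a log2 fold change of 1.65 (SE 0.149, limma, adjusted p = 1.15e-06), and 1.36 (SE 0.170, adjusted p = 3.95e-05) in CPEB3-/- libraries. It stayed called at smaller values of 0.84 and 0.78 with a pseudocount of 1, and of 1.07 with scaling to the sum of FPKM in CPEB3+/- libraries. Its share of the 3 paralogs went from 7.87% ± 0.665 to 23.8% ± 1.83 in CPEB3+/- libraries. Ythdc1 fell by 0.92 on the log2 scale (adjusted p = 0.00305, limma) in CPEB3+/- and by 1.19 (adjusted p = 9.85e-05) in CPEB3-/- libraries. Ythdc2 fell by 1.14 (adjusted p = 1.20e-05) and by 0.96 (adjusted p = 0.00116), which were called in 7 of 8 and 5 of 8 alternative settings. With a pseudocount of 1 they were -0.37 and -0.30, under 1.5-fold. Ythdf2 was called lower in CPEB3-/- libraries, at -0.83 (SE 0.120, limma, adjusted p = 0.000114) against -0.16 (SE 0.134, adjusted p = 0.301) in CPEB3+/- libraries. With scaling to the sum of FPKM the CPEB3+/- value was called too, at -0.79 (adjusted p = 0.00110). In the 19-library fit, the interaction given above tests whether these stage differences were equal. Ythdf3 was not called in either genotype, at 0.11 in CPEB3+/- and -0.15 in CPEB3-/- libraries. With scaling to the sum of FPKM these were -0.52 and -0.60, and the latter was called (adjusted p = 0.00118, limma).

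The eraser Alkbh5 fell by 0.94 (SE 0.171, limma, adjusted p = 0.000352) on the log2 scale in CPEB3+/- libraries. In CPEB3-/- libraries its value of -0.47 passed the p threshold (adjusted p = 0.0151) and not the fold threshold. It was called with scaling to the sum of FPKM (-0.93, adjusted p = 0.000304) and quantile scaling (-0.74, adjusted p = 0.00139), and missed the p threshold as deposited (-0.37, adjusted p = 0.0665). In order of their group means, Alkbh5 stood at 6.06 FPKM in CPEB3-/- MII oocytes, 4.58 in CPEB3-/- 2cell embryos, 3.995 in CPEB3+/- MII oocytes and 2.16 in CPEB3+/- 2cell embryos. Neighbours in that order overlapped except at its end, where the CPEB3+/- 2cell embryos lay below the CPEB3+/- MII oocytes without overlap. The within-library ratio of Alkbh5 to Mettl3 was 1.51 ± 0.368 and 2.49 ± 0.716 in CPEB3+/- and CPEB3-/- MII oocytes, and 1.57 ± 0.533 and 2.43 ± 0.763 in the 2cell embryos, with overlap at both stages.

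**Figure D4:**
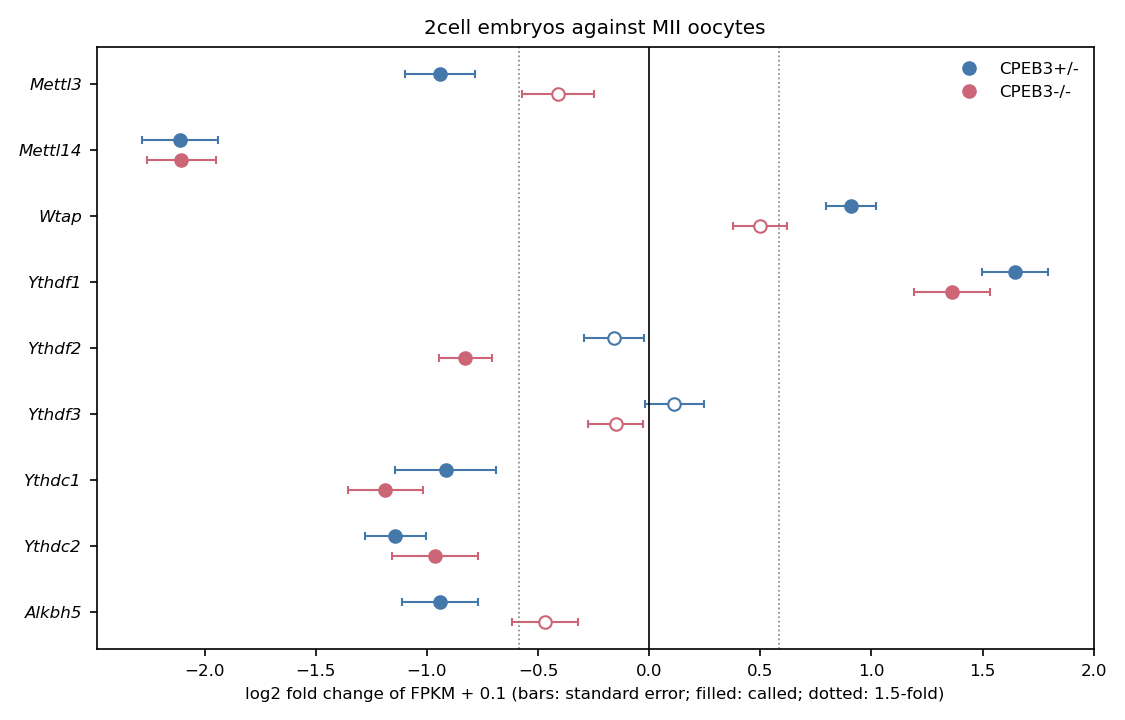
Log2 fold change of 2cell embryos against MII oocytes on log2(FPKM + 0.1) (horizontal axis) for the 9 genes tested, in CPEB3+/- (blue) and CPEB3-/- libraries (red). Bars are standard errors, filled points passed an adjusted p of 0.05 and 1.5-fold, and dotted lines mark 1.5-fold: Mettl14 lies at -2.11 in both genotypes, Ythdf1 at 1.65 and 1.36, and Ythdf2 at -0.16 and -0.83.

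Further genes of the m6A pathway were taken as 5 lists with 51 genes in all. In MII oocytes 38 of them were tested, and 4 were higher and 2 lower in libraries labelled CPEB3-/-, beside 12.9% of all genes called, so 6 of 38 is near the background. Neither the 9 tested of 11 further writer genes nor the ALKBH relatives (4 tested) and the S-adenosylmethionine cycle (5 tested) held a call. Of 9 other m6A readers tested, 2 were higher (Fxr2 and Prrc2a) and 1 lower. Of 11 partners in decay, export and splicing, 2 were higher and 1 lower. Meioc, which binds YTHDC2 in meiotic germ cells, went from 0.0645 ± 0.0268 to 0.415 ± 0.130 FPKM (n = 5 each, log2 fold change 1.57, SE 0.187, limma, adjusted p = 0.000586). Its CPEB3+/- values, at most 0.0944 FPKM, lay under the filter and pseudocount of 0.1 FPKM. Meioc thus passed the filter only through the CPEB3-/- libraries, and the size of its fold change depends on the pseudocount. Upf1, the helicase of nonsense-mediated decay, went from 1.18 ± 0.383 to 2.09 ± 0.281 FPKM (0.73, adjusted p = 0.0127). Srsf3, a splicing factor that works with YTHDC1 in export, was at 6.95 ± 0.992 and 3.84 ± 1.04 FPKM (-0.98, adjusted p = 0.0154). Fxr2 was at 0.229 ± 0.0998 and 0.489 ± 0.205 FPKM (0.77, adjusted p = 0.0483) and Hnrnpc at 6.34 ± 0.690 and 4.47 ± 0.824 FPKM (-0.61, adjusted p = 0.0320), but these calls held in only 3 and 4 of 10 fits that left out a library. With the GC correction 2 of the 51 were called higher and 2 lower, 1 of the latter a further writer gene, and Upf1, Fxr2 and Hnrnpc were no longer among them.

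In 2cell embryos 44 of the 51 were tested, with 1 higher and 2 lower, beside 18.3% of all genes called. Fxr2, a relative of the fragile X protein, was higher again, at 0.175 ± 0.0620 (n = 5) and 0.446 ± 0.0938 FPKM (n = 4; log2 fold change 0.96, SE 0.196, limma, adjusted p = 0.00961), and it was not called with the GC correction, which called 1 listed gene higher and 3 lower, 1 of them a further writer gene. Nxf1, the mRNA export receptor, was at 2.65 ± 0.406 and 1.01 ± 0.281 FPKM (-1.38, SE 0.185, adjusted p = 0.00190). Hnrnpa2b1, a nuclear RNA-binding protein described as an m6A reader, was at 5.08 ± 1.04 and 2.73 ± 0.511 FPKM (-0.92, SE 0.182, adjusted p = 0.00852). The median log2 fold change over the listed genes tested was -0.01 in MII oocytes and -0.05 in 2cell embryos, beside 0.01 and -0.01 over all genes. In the interaction, 2 of 46 were called, both lower, beside 3.93% of all genes called lower: Meioc at -1.67 (adjusted p = 0.00179, limma) and Nxf1 at -1.05 (adjusted p = 0.0214). With the GC correction 2 listed genes were called higher and 3 lower in the interaction.

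**Figure D5:**
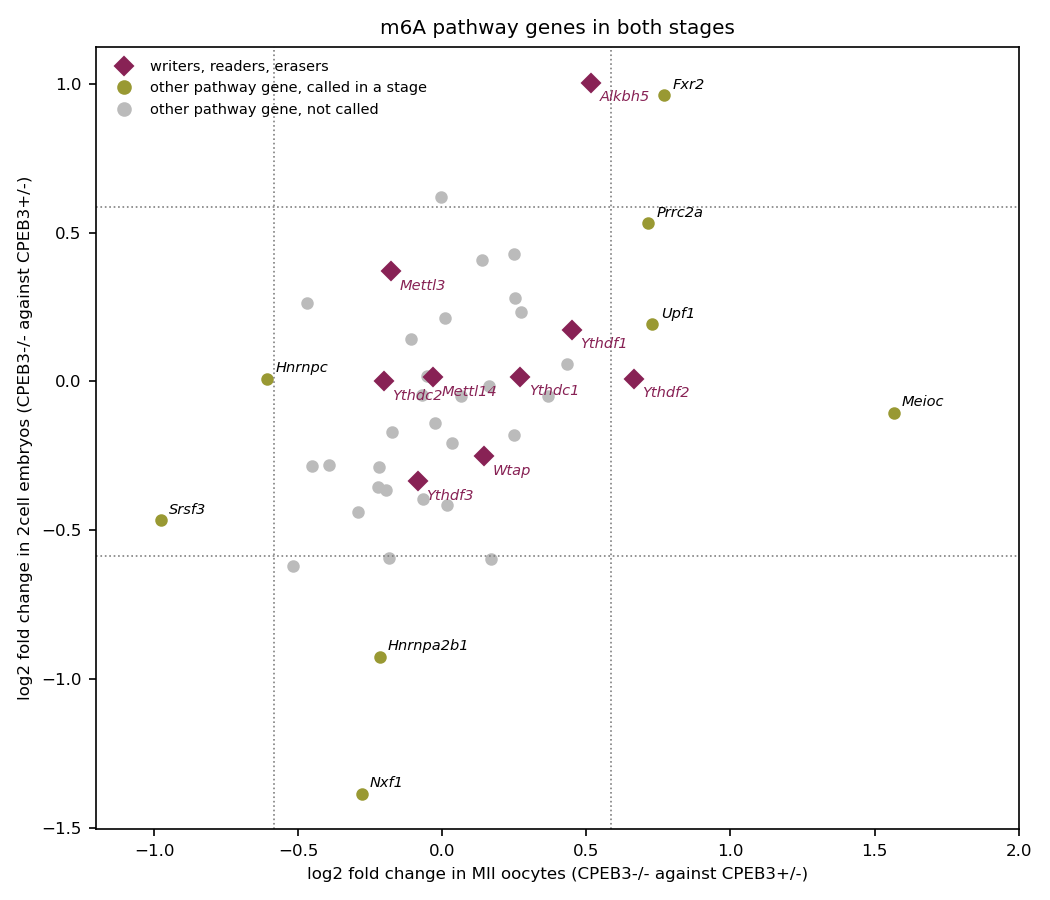
Log2 fold change of CPEB3-/- against CPEB3+/- libraries in MII oocytes (horizontal axis) and 2cell embryos (vertical axis), on log2(FPKM + 0.1), for the 9 genes (diamonds) and the other pathway genes tested in both stages (circles). Named circles were called in a stage and dotted lines mark 1.5-fold: Meioc lies at 1.57 in MII oocytes, Nxf1 at -1.38 in 2cell embryos, and Alkbh5 and Fxr2 lie at the upper right.

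Between stages in CPEB3+/- libraries, 16 of 43 listed genes tested were higher and 13 lower, close to the 38.5% and 30.9% of all genes. Meioc went from 0.0645 to 2.86 ± 0.709 FPKM (log2 fold change 4.05, limma, adjusted p = 1.08e-08), Rbmx, an m6A-dependent RNA binder, from 0.0178 to 1.22 ± 0.157 FPKM (3.42, adjusted p = 1.57e-09), and Alkbh4 from 0.0134 to 1.11 ± 0.463 FPKM (3.28, adjusted p = 1.14e-07). Their MII levels lie under the pseudocount of 0.1 FPKM, so the size of these fitted values depends on it. These genes passed the filter only through the 2cell libraries. Virma, the scaffold of the writer complex, had the largest fall, from 1.81 ± 0.129 to 0.278 ± 0.0792 FPKM (-2.47, adjusted p = 1.17e-07). Mat2b, the regulatory subunit of methionine adenosyltransferase, fell from 71.7 ± 4.14 to 18.1 ± 3.93 FPKM (-2.13, adjusted p = 1.36e-07), and the reader Igf2bp2 from 1.33 ± 0.153 to 0.264 ± 0.0537 FPKM (-2.08, adjusted p = 5.16e-08). Of the 10 further writer genes tested, 2 were higher and 4 lower in CPEB3+/- and the same counts held in CPEB3-/- libraries, where 15 of 44 listed genes were higher and 15 lower.

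The genes most like the called members were found over the 19 libraries after the mean of each stage was subtracted, among 3316 genes with at least 1 FPKM in both stages. Alkbh5 was closest to Ddb1 (Pearson r = 0.98) and Psmd3 (r = 0.96). Ddb1, a subunit of the CUL4 ubiquitin ligase, was at 4.01 and 6.84 FPKM in CPEB3+/- and CPEB3-/- MII oocytes and at 1.82 and 4.87 FPKM in 2cell embryos. Psmd3, a proteasome subunit, was at 2.04 and 2.94 FPKM and at 1.57 and 3.19 FPKM. Ythdf2 was closest to Ugcg (r = 0.88), a glucosylceramide synthase, at 0.697 and 1.34 FPKM in MII oocytes and 1.90 and 2.22 FPKM in 2cell embryos, and to Rtf2 (r = 0.85), at 1.71 and 2.89 FPKM in MII oocytes and 1.39 and 1.499 FPKM in 2cell embryos. These correlations describe 19 libraries that share their genotype groups, and carry no test.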

How the data were processed

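The authors trimmed read pairs from SMART-seq v4 libraries with Trim Galore 0.4.1 and mapped them to GRCm38 with HISAT2 2.0.5 (submitters' notes). Per the paper's methods they computed FPKM in SeqMonk, and the deposited table holds these FPKM values, 25891 genes in 19 libraries, although its name calls them counts. Column sums ran from 77208 to 159320. The methods speak of quadruplicates without naming them, so all libraries were used. The members and lists were chosen with earlier results of these data known.

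FPKM were scaled between libraries by trimmed means of log ratios (trims of 30% and 5%), filtered at 0.1 FPKM in at least as many libraries as the smaller group (5 or 4), and tested as log2(FPKM + 0.1) with limma 3.58.1 (R 4.3.3) with a variance trend. Such fold changes understate the change of low genes. P-values were adjusted over all genes tested (Benjamini-Hochberg), and genes were called under 0.05 and over 1.5-fold. Genes outside a fit were compared by a two-sided exact permutation test, whose smallest p is 0.00794 here. Printed FPKM are as deposited, without that scaling. Named from the lists were up to 3 genes called in each direction with the largest change per comparison, and for called members the 2 genes with the highest correlation; Prrc2a was named after its values were seen. Fragments were roughly estimated from FPKM, merged exon length (GENCODE vM21) and the step of 1 fragment; 43.3% to 47.6% of low values came within 0.05 of a whole number, so no count test was run. The scripts were tested on simulated data. Alternatives were other scalings, pseudocounts, filters, a GC correction, a replicate block and leaving out each library. No replicate pair shared more than 0.00538% of its values above 0.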

Additional observations from a re-analysis of the deposited data

Results flagged for a closer look

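The genotype difference of Ythdf2 changed between stages by -0.61 on the log2 scale in a test of the difference itself over 19 libraries (SE 0.167, limma, Benjamini-Hochberg adjusted p = 0.0310), with 0.64 in MII oocytes and 0.03 in 2cell embryos in that fit. The call held in 4 of 9 alternatives and 11 of 19 fits that left out a library, and its adjusted p was 0.0526 with GC correction and 0.153 with scaling to the sum of FPKM. In MII oocytes all 5 libraries labelled CPEB3-/- were higher than all 5 labelled CPEB3+/-, and in 2cell embryos the groups overlapped. No library stood apart from the rest of its group in any of 36 groups of values tested over the detected genes.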

How the results depend on the processing

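The Ythdf2 difference in MII oocytes and the Alkbh5 difference in 2cell embryos kept their direction under each of 10 alternatives and each left-out library. The first was called in 9 of the 10 (lost with a pseudocount of 1) and the second in 9 of the 10 (lost with the replicate block and GC correction together, 0.94, adjusted p = 0.0572, limma). The Ythdf2 interaction was lost in 5 of 9 alternatives: scaling to the sum of FPKM, a pseudocount of 1, GC correction, the replicate block (-0.60, adjusted p = 0.0719) and both of the last together, each leaving 0 members called. It was also lost without CPEB3+/- MII libraries A or C, CPEB3-/- MII library D, CPEB3+/- 2cell libraries C, D or E, or CPEB3-/- 2cell libraries B or C.

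Members called in MII oocytes numbered 3 with scaling to the sum of FPKM, 0 with a pseudocount of 1 and 2 without a fold threshold, and 1 to 2 with a library left out. In 2cell embryos they numbered 0 with the replicate block and GC correction and 1 with any library left out. Between stages in CPEB3-/- libraries they numbered 8 with scaling to the sum of FPKM, 3 with a filter of 1 FPKM and 8 without a fold threshold. In the interaction they numbered 0 to 1 with a library left out.

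Genes called in MII oocytes (1355) numbered 481 with a pseudocount of 1, 774 with a filter of 1 FPKM, 2247 without a fold threshold and 954 to 1539 with a library left out. In 2cell embryos (2565) they numbered 1178, 1496 and, with a library left out, 1825 to 2563. Between stages they numbered 5119 (pseudocount of 1) and 4167 (filter of 1 FPKM) for 8810 in CPEB3+/- libraries, and 5264 and 4398 for 9044 in CPEB3-/- libraries. In the interaction (1206) they numbered 790 and 795, and 919 to 1494 with a library left out. The split of higher and lower calls depended on scaling: 588 and 767 in MII oocytes became 786 and 591 as deposited and 1111 and 478 with scaling to the sum of FPKM, and 1181 and 1384 in 2cell embryos became 2423 and 573 with that scaling. In CPEB3+/- libraries 4886 and 3924 between stages became 3920 and 5588 with scaling to the sum and 3874 and 5451 with quantile scaling. In CPEB3-/- libraries 5051 and 3993 became 4277 and 5280, and 4013 and 5664. In the interaction 586 and 620 became 802 and 416 with scaling to the sum. Scaling to the sum moved the median of all genes by genotype to 0.15 for MII oocytes and 0.26 for 2cell embryos.

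Replicate letters did not pair the libraries: deviations of same-letter libraries had correlations of -0.175 to 0.12 (MII oocytes) and -0.069 to 0.037 (2cell embryos), and 1 of 5 and 1 of 4 letters correlated best with themselves. With the replicate block 824 genes were called in MII oocytes, 414 in 2cell embryos and 827 in the interaction. With the block and the GC correction limma called 0 genes in 2cell embryos, where 3325 of 13933 had an unadjusted p under 0.05. The cause was not tested.

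The sign turned only for values that were not called. By genotype in MII oocytes, Ythdf3 turned to 0.011 as deposited, 0.087 with scaling to the sum and 0.21 with GC correction, without or with the block. Mettl14 turned to 0.056, 0.13, 0.18 and 0.18 there, and read -0.096 to 0.029 with a library left out. By genotype in 2cell embryos, Ythdf3 turned to 0.0047 with scaling to the sum, 0.090 with GC correction and 0.089 with the block too, and Wtap to 0.089, 0.12 and 0.14. Without a filter, Ythdf2 turned to -0.024, Ythdc1 to -0.018 and Mettl14 to -0.0031. Mettl14 also turned to -0.022 with quantile scaling, -0.0006 with a pseudocount of 1 and -0.01 with the replicate block. Ythdc2, at 0.00, read 0.04 as deposited, 0.23 with scaling to the sum, 0.0033 with a pseudocount of 1, 0.28 with GC correction, 0.19 with the block too and 0.012 with all 19 libraries in 1 fit. With a library left out, Ythdf2 read -0.059 to 0.089, Ythdc1 -0.15 to 0.19, Ythdc2 -0.14 to 0.12 and Mettl14 -0.12 to 0.11. Between stages, Ythdf3 turned to -0.52 with scaling to the sum, -0.21 with quantile scaling and as low as -0.017 (to 0.20) with a library left out in CPEB3+/- libraries, and to 0.19 with GC correction and 0.20 with the block too in CPEB3-/- libraries. In the interaction, Ythdc1 turned to 0.0024 with the block and GC correction, and Mettl14 to -0.010 as deposited, -0.029 with quantile scaling and -0.054 to 0.16 with a library left out.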
